A study of Mus musculus with 6 samples.

Results

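DNA methylation was examined at 10 genes that form 5 nested pairs, each an imprinted gene that lies inside an intron of a host gene: Zrsr1 in Commd1, Mcts2 in H13, Nap1l5 in Herc3, Nnat in Blcap, and Peg13 in Trappc9. The members were chosen by name and position out of 53734 named genes of the mouse annotation. No measured value entered that rule, but earlier results of these data were known when it was set. Every CpG of the intragenic gene with 5000 bp on each side was taken, in 132 windows of 500 bp, together with the promoter and the body of the host.

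Whole-genome bisulfite sequencing was carried out on 3 groups of mouse stem cells, with 2 libraries per group. It served to examine the epigenome of ASCs beside that of naive and primed cells. The cells are recorded as wild-type and of strain 129S2/SvPasCrl. ASCs are advanced pluripotent stem cells derived from blastocysts, ESCs are embryonic stem cells kept in 2i/LIF, the medium that holds cells in the naive state, and EpiSCs are epiblast stem cells, a primed cell type. The study describes the sequenced cells as female. It also describes making ASCs from lines with GFP reporters, bred from 129/sv females and transgenic males of mixed strain background. Whether the sequenced cells were of such lines is not stated. The labels do not name lines or clones, so how far the groups differ through single lines cannot be told apart from the cell state. Culture medium and way of derivation also go with the group and cannot be told apart from it.

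Imprinted genes are expressed from 1 parental copy, which in most cases follows a methylation mark that the egg or the sperm laid down and that is kept through the methylation loss of the early embryo. At the loci described here the mark comes from the egg and covers the start of the intragenic gene on the maternal copy, so that the intragenic gene is read from the paternal copy while the start of the host carries no such mark. In the egg, transcription that starts upstream and crosses the intragenic start is a known step in setting marks of this kind. In female ESCs kept in 2i/LIF such marks are known to be lost.

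Retrogenes are DNA copies of a spliced mRNA and therefore have no introns of their own. By the GENCODE annotation on GRCm38 this held for Zrsr1 (chromosome 11, 22972005 to 22976496, plus strand), Mcts2 (chromosome 2, 152687035 to 152687946, plus strand) and Nap1l5 (chromosome 6, 58905233 to 58907076, minus strand), which have 1 exon each. The chosen transcript of Nnat (chromosome 2, 157560110 to 157562522, plus strand) has 3 exons, and Peg13 (chromosome 15, 72805600 to 72810324, minus strand) is a noncoding RNA, so the pairs are called intragenic genes and hosts below. Zrsr1 lies in intron 1 of Commd1, Nap1l5 in intron 22 of Herc3 and Nnat in intron 1 of Blcap, each on the strand opposite to the host. Mcts2 in intron 4 of H13 and Peg13 in intron 16 of Trappc9 run on the strand of the host.

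Stretches of 250 bases that end just before the outermost start in GENCODE or RefSeq (RefSeq for Nap1l5 and H13, whose GENCODE starts lie further inside) are shown for 3 intragenic genes, picked after their values were seen because the groups stood differently to each other there, and for H13 as a host, with every CpG in capitals. They were read 5′ to 3′ on the strand of the gene from the RefSeq copy of GRCm38.p6, at chr2:152686785-152687034 (plus strand) for Mcts2, chr6:58907127-58907376 (minus strand) for Nap1l5, chr15:72810325-72810574 (minus strand) for Peg13 and chr2:152669172-152669421 (plus strand) for H13.
Mcts2: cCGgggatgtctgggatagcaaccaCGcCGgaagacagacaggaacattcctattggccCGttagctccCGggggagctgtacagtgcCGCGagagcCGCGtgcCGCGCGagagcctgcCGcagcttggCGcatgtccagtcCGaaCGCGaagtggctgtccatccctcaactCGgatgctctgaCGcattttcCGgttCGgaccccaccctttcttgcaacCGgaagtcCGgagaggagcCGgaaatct
Nap1l5: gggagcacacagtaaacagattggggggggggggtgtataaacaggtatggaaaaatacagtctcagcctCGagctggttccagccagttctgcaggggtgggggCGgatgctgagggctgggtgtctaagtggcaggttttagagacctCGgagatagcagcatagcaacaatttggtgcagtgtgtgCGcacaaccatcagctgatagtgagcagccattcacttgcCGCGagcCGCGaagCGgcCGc
Peg13: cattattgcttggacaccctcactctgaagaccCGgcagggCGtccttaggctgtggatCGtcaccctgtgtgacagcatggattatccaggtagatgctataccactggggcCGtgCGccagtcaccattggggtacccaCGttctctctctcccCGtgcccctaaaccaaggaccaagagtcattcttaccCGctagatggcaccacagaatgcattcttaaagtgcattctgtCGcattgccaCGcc
H13: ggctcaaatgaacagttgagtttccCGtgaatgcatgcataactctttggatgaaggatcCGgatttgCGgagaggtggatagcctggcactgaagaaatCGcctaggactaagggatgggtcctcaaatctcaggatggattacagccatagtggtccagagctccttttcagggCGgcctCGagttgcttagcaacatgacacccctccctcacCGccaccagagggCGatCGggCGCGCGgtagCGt

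The stretches hold 24 CpG in Mcts2, 10 in Nap1l5, 10 in Peg13 and 13 in H13. Reads were counted at each CpG, so a read over several CpG enters several times. The counts are therefore not of separate reads. Summed over these CpG, 0 of 51 and 0 of 82 CpG reads were methylated before Mcts2 in ASC replicates 1 and 2. In EpiSC replicates 1 and 2 the counts were 78 of 160 and 45 of 90. Before Nap1l5 the ASC libraries had 3 of 20 and 10 of 35 reads methylated and the EpiSC libraries 30 of 31 and 48 of 49. Before Peg13 the share of methylated reads was 63.9% and 70.2% for ASC replicates 1 and 2, beside 67.5% and 49.2% for EpiSC replicates 1 and 2. The H13 stretch had 0 of 40 and 0 of 85 methylated reads in ASCs and 1 of 48 and 1 of 53 in EpiSCs. In ESCs no stretch had more than 1 methylated read in a library. The 3 intragenic starts, picked because they differed, had the EpiSC libraries about evenly mixed and the ASC libraries at 0 (Mcts2), the EpiSC libraries almost fully methylated and the ASC libraries low (Nap1l5), and both mixed (Peg13). In the like stretches not shown, ASC replicates 1 and 2 were at 0% and 13.5% (Zrsr1) and at 34.1% and 23.3% (Nnat). EpiSC replicates 1 and 2 were there at 38.9% and 58.5% (Zrsr1) and at 84.6% and 95.7% (Nnat).

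The libraries held between 63803799 and 74925271 CpG reads, or 3.03 to 3.55 reads per listed CpG on chromosomes 1 to 19 and X, so reads were summed over regions. A read at a CpG is called an observation, the methylation level is the share of methylated observations, and a region was tested where every library had at least 40 of them. Over all reads the ASC libraries lay at 59.8% and 60.2%, far above the ESC libraries (17.9% and 18.2%) and below the EpiSC libraries (81.0% and 80.2%), and every result below stands on these unequal genome-wide levels. As a check of the labels, the promoter of Zfp42, a marker of the naive state, was at 0% in both ASC and both ESC libraries and at 96.2% ± 2.22 in EpiSCs (SD, n = 2), that of Tcl1, another naive marker, was at 4.08%, 1.27% and 93.7% in the order ASCs, ESCs, EpiSCs, and that of Pou5f1, active in all pluripotent cells, was under 1% in each group. Dppa3 was at 9.42%, 1.72% and 98.6% in ASCs, ESCs and EpiSCs but had too few observations for a test. These markers tell the EpiSC libraries from the others and do not separate ASCs from ESCs. The study had already reported Zfp42, Tcl1 and Dppa3 as demethylated in ASCs beside EpiSCs from these data, so the outcome was known. The 3 comparisons between groups share libraries. The files do not separate the parental copies, so methylation of 1 copy and a mixture of methylated and unmethylated cells cannot be told apart at an intermediate level.

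The first question was how the starts of the intragenic genes stood in the 3 cell types. A promoter reached 1000 bp upstream and 100 bp downstream of the start. All 5 intragenic promoters were nearly free of methylation in ESCs, between 0.592% (Mcts2) and 3.16% (Peg13), and all 5 were higher in EpiSCs, between 54.6% (Mcts2) and 98.1% (Nap1l5). In ASCs they ranged from 0.778% at Mcts2 to 68.6% at Peg13. By the quasi-binomial model moderated with limma, with Benjamini-Hochberg adjustment over all 23690 promoters tested and a difference of at least 20 percentage points, 5 of 5 were called higher in EpiSCs than in ESCs, where 52.8% of all promoters were. Between ASCs and ESCs 3 of 5 were called higher in ASCs (Nap1l5, Nnat and Peg13), beside 35% of all promoters. Between ASCs and EpiSCs 4 of 5 were called lower in ASCs, all but Peg13, beside 34.4% of all promoters. The median difference over the 5 was 26.8 points for ASCs minus ESCs, 67.2 for EpiSCs minus ESCs and -51.0 for ASCs minus EpiSCs, and over all promoters it was 6.80, 23.7 and -11.7. With 5 chosen genes these counts and medians are a description.

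**Figure D1:**
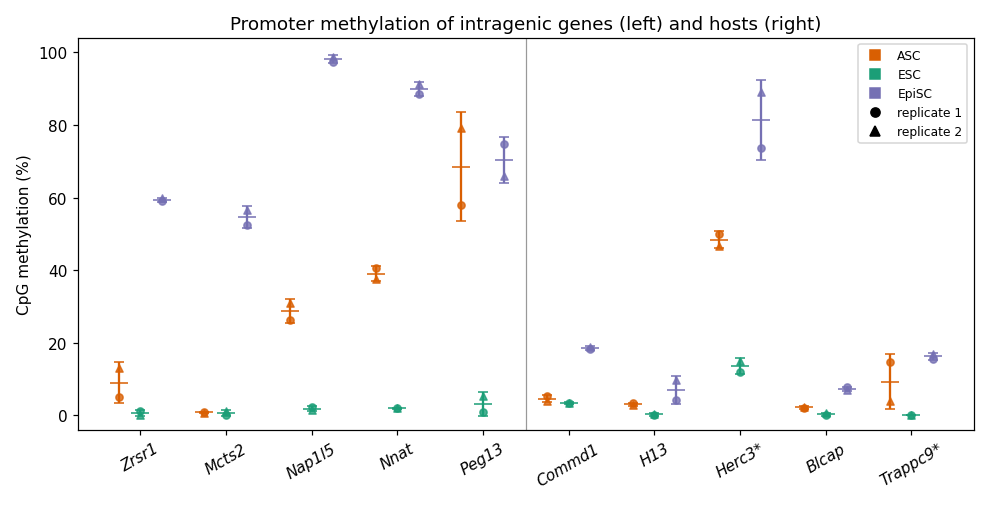
CpG methylation (%) of the promoters (1000 bp upstream and 100 bp downstream) of the 5 intragenic genes (left of the line) and their 5 hosts (right). Circles and triangles are replicates 1 and 2, horizontal marks the mean and bars the SD of 2 libraries, and an asterisk marks a host with under 40 observations in a library. Read from Zrsr1 to Peg13, the ASC means of the intragenic promoters are 9.01%, 0.778%, 28.6%, 39.0% and 68.6%.

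Zrsr1 encodes a relative of the splicing factor subunit ZRSR2, from whose gene it was copied. Its promoter was at 5.06% and 12.96% in ASC replicates 1 and 2, at 1.22% and 0% in ESC replicates 1 and 2 (0 of 87 observations, which allows a share of up to 3.45%), and at 59.0% and 59.8% in EpiSC replicates 1 and 2. The ASC libraries lay above the ESC libraries, and both groups lay far below both EpiSC libraries. The difference ASC minus EpiSC was -50.4 ± 5.03 points (SE, n = 2 and 2, adjusted p = 9.59e-06). The SE here and at the other loci comes from the summed observations and the moderated dispersion, not from the SD of the libraries. The gap between ASCs and ESCs, 8.40 ± 2.77 points, had an adjusted p of 0.0100 but did not reach 20 points. It was 4.45 points (adjusted p = 0.130) without ASC replicate 2 and 12.4 points (adjusted p = 0.00962) without ASC replicate 1. Over 1000 bp on each side of the start it was 1.68 points (adjusted p = 0.0264) and over 500 bp 2.57 points (adjusted p = 0.0923). In the window just before the start ASC replicate 2 was at 16.4% and ASC replicate 1 at 1.92%.

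Mcts2 was copied from Mcts1, whose product acts in the recycling of ribosomes and in starting translation. Its promoter was almost unmethylated in ASCs (0.935% and 0.621% in replicates 1 and 2) and also in ESCs (0% and 1.18%, with 0 of 204 observations in ESC replicate 1, an upper limit of 1.47%), and stood at 52.6% and 56.7% in the EpiSC libraries. Both ASC libraries lay within the range of the ESC libraries. The difference between ASCs and ESCs was 0.186 points with a 95% interval from -1.65 to 2.02 (adjusted p = 0.845). Over 1000 bp on each side of the start, which takes in more of the gene, ASCs were higher than ESCs by 5.49 points (adjusted p = 0.00156). Over 500 bp on each side they were higher by 1.28 points (adjusted p = 0.463). The difference was thus smaller over the promoter and the 500 bp span than over the widest span. The difference between ASCs and EpiSCs was -53.9 ± 3.002 points (adjusted p = 1.60e-07).

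Nap1l5 belongs to the family of nucleosome assembly proteins. The ASC libraries had promoter levels of 26.3% and 31.0%, the ESC libraries of 2.33% and 1.36% and the EpiSC libraries of 97.3% and 98.9%. No group overlapped another, and the EpiSC level was close to complete. ASCs were higher than ESCs by 26.8 ± 3.57 points (adjusted p = 1.84e-05), and the ASC minus EpiSC difference was -69.4 ± 3.57 points (adjusted p = 4.65e-08), the largest of the 5 loci.

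Nnat encodes neuronatin, a small membrane protein of the endoplasmic reticulum. At its promoter 40.5% and 37.5% of observations were methylated in ASCs, while the ESC libraries gave 2.05% and 1.89% and the EpiSC libraries 88.6% and 91.4%. As at Zrsr1 and Nap1l5, the ASC level lay between those of the other groups. The ASC minus ESC difference was 37.0 ± 2.52 points (adjusted p = 3.44e-06) and the ASC minus EpiSC difference -51.0 ± 2.94 points (adjusted p = 1.05e-07).

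Peg13 gives a noncoding RNA from the paternal copy. Its promoter reached 57.9% and 79.2% in the ASC libraries, against 0.885% and 5.43% in the ESC libraries, and 74.8% and 65.9% in the EpiSC libraries. The ASC libraries differed from each other by more than at any other intragenic promoter, with 136 of 235 and 206 of 260 observations methylated, and their range enclosed the EpiSC values. ASCs were higher than ESCs by 65.4 ± 4.62 points (adjusted p = 1.05e-05). The SD of the 2 libraries was 15.1 points in ASCs, 3.21 in ESCs and 6.33 in EpiSCs. This SE and the interval that follows rest on summed observations and may understate the spread between libraries. The ASC minus EpiSC difference was -1.78 points with a 95% interval from -16.04 to 12.5 (adjusted p = 0.937). Its sign depended on the span: over 1000 bp on each side of the start ASCs were higher by 8.82 points (adjusted p = 0.00467) and over 500 bp on each side by 12.1 points (adjusted p = 0.00267), both under 20 points.

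The differences among the loci were tested as well. For each intragenic promoter the log odds ratio of methylation in ASCs against EpiSCs was taken, and the 10 pairs of loci were compared with adjustment over the 10. On the log2 scale the ratio was -3.70 at Zrsr1, -6.72 at Mcts2, -6.78 at Nap1l5, -3.76 at Nnat and -0.0414 at Peg13. It differed in 8 of 10 pairs, among them all 4 pairs with Peg13, whose adjusted p-values lay between 1.68e-05 and 0.000285. Zrsr1 and Nnat (difference 0.0536 ± 0.577, adjusted p = 0.960) and Mcts2 and Nap1l5 (difference 0.0608 ± 1.199, adjusted p = 0.960) were not called. Without ASC replicate 2, 5 pairs were called, the 4 with Peg13 and Nap1l5 with Nnat, and without ASC replicate 1, 6 were, since Mcts2 against Zrsr1 (adjusted p = 0.0561) and against Nnat (adjusted p = 0.0812) were lost. The value at Mcts2 rests on 1 methylated observation in each ASC library. That at Nap1l5 rests on EpiSC libraries with 143 of 147 and 173 of 175 observations methylated. In points, the ASC minus EpiSC differences at Zrsr1, Mcts2 and Nnat were close (-50.4, -53.9 and -51.0). At Nap1l5, not called against Mcts2, the difference was -69.4 points. Which pairs were called thus rests on the log odds scale, and differences in points were not tested between loci. Over 1000 bp on each side of the start the value at Mcts2 was -3.83, that at Zrsr1 was -5.34, and the difference between these loci turned from 3.02 to -1.52. With that span 8 pairs were called again, but not the same 8: Zrsr1 with Nap1l5 (adjusted p = 0.144) and Mcts2 with Nnat (adjusted p = 0.295) were not, and Zrsr1 with Nnat (adjusted p = 0.0428) and Mcts2 with Nap1l5 (adjusted p = 0.000866) were. The 4 pairs with Peg13 were called in every one of these settings, and the order of the other loci depended on the span.

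The members were then set beside promoters of like level, as a description. Of the promoters tested, 1742 were under 10% in ESCs and from 40% to 80% in EpiSCs, as Zrsr1, Mcts2 and Peg13 were. Their ASC level had a median of 15.03% (quartiles 5.90% and 24.9%), and 37.5% of them were under 10% in ASCs. The ASC level of Zrsr1 lay inside the quartiles, with 34.96% of these promoters lower, and that of Mcts2 lay near the lower end, with 5.91% lower and 1638 of the 1742 higher. Peg13 lay at the other end, since 3 of the 1742 were higher in ASCs. Nap1l5 and Nnat belonged to the 1787 promoters under 10% in ESCs and at 80% or more in EpiSCs, where the median ASC level was 25.95% (quartiles 12.2% and 42.9%), and 55.2% and 70.2% of these promoters had lower ASC levels.

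**Figure D2:**
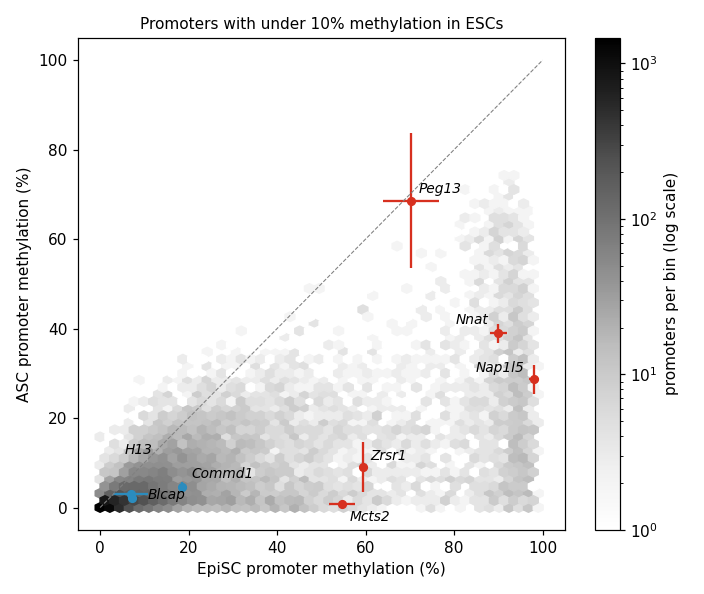
Mean promoter methylation (%) in EpiSCs (x axis) and ASCs (y axis) of the 16503 promoters with under 10% in ESCs, in grey bins whose shade gives the number of promoters on a log scale. Red points are the intragenic genes, blue points the 3 hosts tested, bars the SD of 2 libraries and the dashed line equal levels. Peg13 (68.6% in ASCs, 70.3% in EpiSCs) lies next to the line, and Zrsr1, Mcts2, Nap1l5 and Nnat lie far below it.

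To see where the methylation began and ended, the windows of 500 bp were followed along each locus. Of the 132 windows, 89 had at least 10 observations in every library and 26 had the 40 needed for a test. Of these 26, 14 were called in the comparison of ASCs with ESCs, all higher in ASCs (68.4% of 173282 windows genome-wide), 23 were higher in EpiSCs than in ESCs (81.2% genome-wide) and 19 lower in ASCs than in EpiSCs (51.8% genome-wide). By limma on log ratios of the counts and by Fisher's exact test the counts were also 14, 23 and 19, where Fisher's exact test was run on summed observations and covers counting error only.

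At Zrsr1 the low ASC level reached well into the gene. Over the start the ASC libraries (0% and 0.649%) and ESC libraries (0% and 0.667%) were nearly unmethylated, beside 51.7% and 40.7% for the EpiSC libraries. Of the windows tested, the lowest EpiSC mean, 42.1%, lay in the window centred 1245.5 bp after the start, where ASCs were at 1.15%, and the highest, 63.9%, just before the start, where ASCs were at 9.16%. The 5 tested windows were all called in both comparisons with EpiSCs, which stood above the other groups, and in these windows ASC and ESC means differed by at most 9.16 points. In the flanks, where fewer reads were at hand, EpiSCs reached 98.1% at the window centred 4745.5 bp after the start.

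At Mcts2 the EpiSC profile dipped over the start. In the start window ASC libraries had 7.34% and 1.15%, ESC libraries 1.38% and 2.19%, and EpiSC libraries 41.8% and 41.6%, which was also the lowest EpiSC mean of the tested windows, at 41.7%. The highest, 94.7%, lay in the window centred 1715.5 bp after the start, which spans the end of intron 4 of H13, where ASCs were at 38.9% and ESCs at 3.66%. In the tested window centred 715.5 bp after the start, also singled out after its values were seen, ASCs were at 25.3% and ESCs at 5.66% (19.7 points, adjusted p = 0.00614, under the 20 of a call). On both sides the ASC level climbed, to medians of 67.8% over the 10 upstream and 49.0% over the 9 downstream windows with at least 10 observations, while the EpiSC medians were 94.1% and 94.7%. The unmethylated stretch in ASCs thus lay around the Mcts2 start, inside a host gene that was methylated on both sides of it in the same libraries.

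At Nap1l5 the EpiSC profile showed no dip. Its start window gave 18.8% and 22.7% for ASCs, 0.800% and 1.04% for ESCs, and 97.1% and 98.6% for EpiSCs, the highest EpiSC mean of the tested windows (97.8%). The other tested window, inside the gene, had the lowest, 97.1%, with ASCs at 28.1%. All 10 windows with at least 10 observations were at 94.6% or more in EpiSCs, and the ASC level had a median of 73.4% over the 5 downstream windows.

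At Nnat the window profile crossed from the intragenic gene into the promoter of the host. The window over the Nnat start gave 29.4% and 27.03% for ASCs, 0.763% and 0.474% for ESCs, and 86.8% and 90.6% for EpiSCs. The highest EpiSC mean of the tested windows, 98.6%, lay at a window centre of -2359.5 bp from the start, and the lowest, 0.455%, at 6140.5 bp, next to the start of Blcap, where ASCs were at 0% and ESCs at 0.360%. That window and its tested neighbours were the 3 of 9 tested windows at this locus that were not called in any comparison. Across the last 2 windows with at least 10 observations the EpiSC level rose again to 96.2% while ASCs were at 18.3% and ESCs at 1.16%.

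At Peg13 the profiles of ASCs and EpiSCs crossed. The window over the start stood at 77.2% and 72.4% in the ASC libraries, 0% and 0.699% in the ESC libraries, and 54.5% and 57.4% in the EpiSC libraries, the lowest EpiSC mean of the tested windows (56.0%). Here both ASC libraries were higher than both EpiSC libraries, by 18.8 points in the mean (adjusted p = 0.00122), which did not reach 20 points. The same window passed the call, as higher in ASCs, without ASC replicate 2 (21.3 points, adjusted p = 0.00646) and without EpiSC replicate 2 (20.2 points, adjusted p = 0.0261), and so did a window that overlaps it on a grid shifted by 250 bp (20.6 points, adjusted p = 0.00205). At the window centred 1073.5 bp after the start ASCs were also higher, by 11.4 points, and the 1 tested window of 5 called lower in ASCs lay 2073.5 bp after the start, at 62.1% against 96.2%. The highest EpiSC mean, 97.7%, lay 3573.5 bp after the start, where ASCs were at 83.5%. The spread between the ASC libraries at the promoter was also seen in the window just before the start, at 49.1% and 87.2%, which had 37 observations in its shallowest library and was not tested. The windows at 1073.5 and 2073.5 bp, the one just before the start and the flank window at Zrsr1 were singled out after their values were seen.

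**Figure D3:**
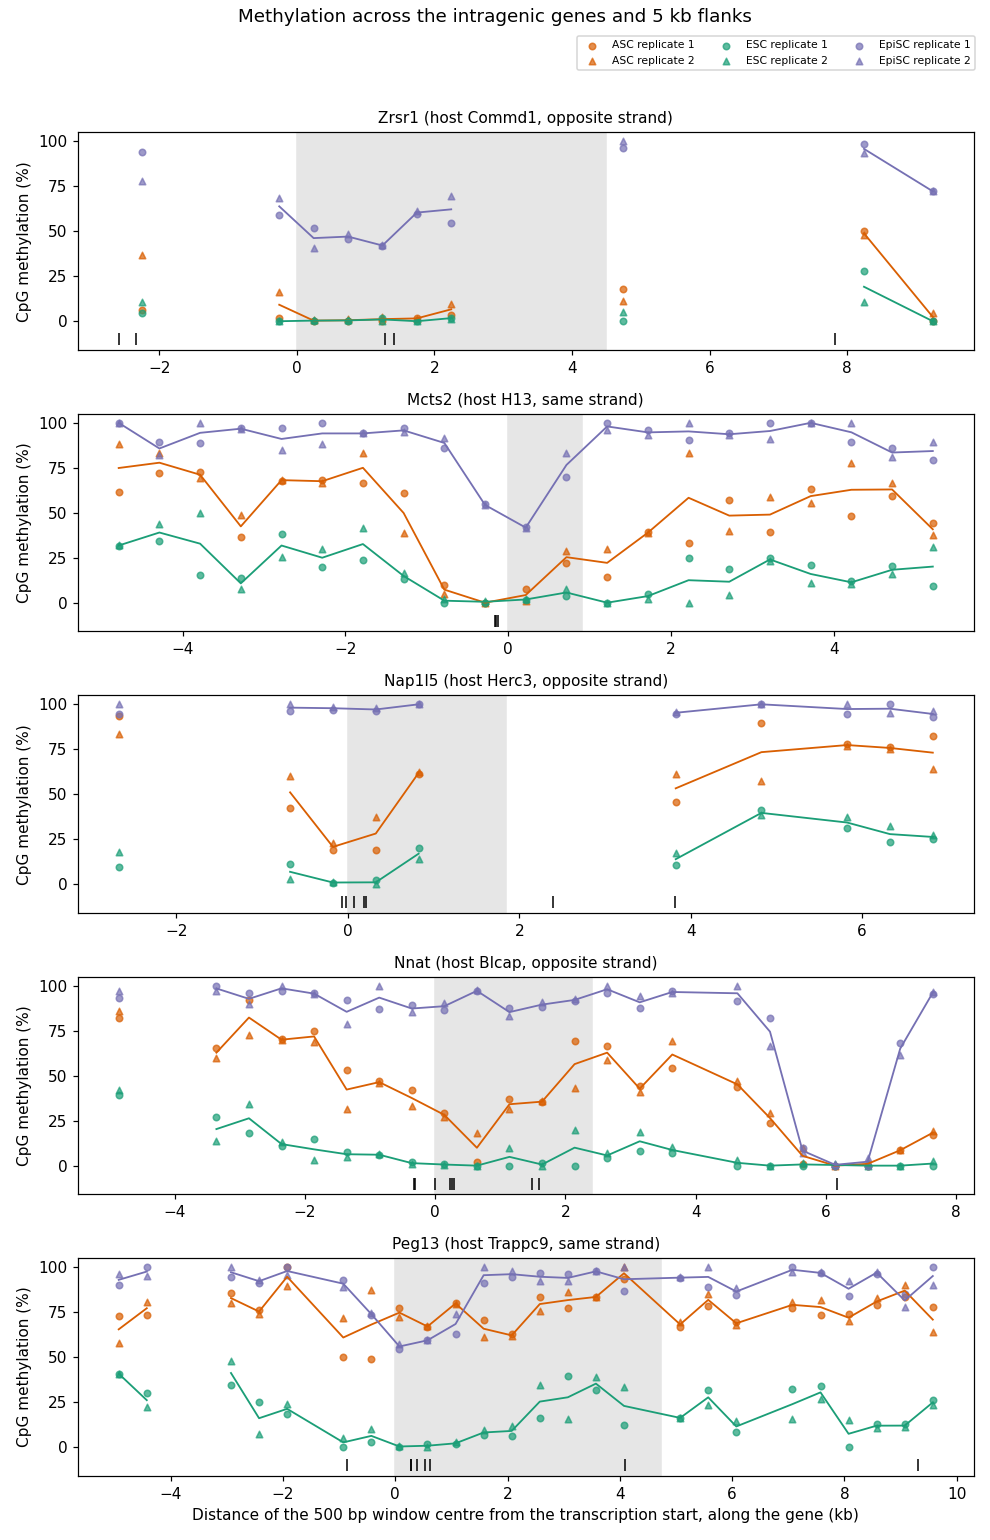
CpG methylation (%) in windows of 500 bp with at least 10 observations in every library, against the distance of the window centre from the intragenic start along the gene (kb), for Zrsr1, Mcts2, Nap1l5, Nnat and Peg13 from top to bottom. Points are libraries, lines join group means of windows no more than 1.2 kb apart, grey marks the intragenic gene and ticks mark TGCCGC on either strand. Over the start ASCs stand at 0.325%, 4.24%, 20.7%, 28.2% and 74.8% and EpiSCs at 46.2%, 41.7%, 97.8%, 88.7% and 56.0%.

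The zinc finger protein ZFP57 binds the hexamer TGCCGC when its CpG is methylated and is needed to keep many imprints. The hexamer was searched on both strands within 1000 bp of each start, and its matches hold 1 CpG each. Within this span it matched 0 times at Zrsr1, 3 at Mcts2 (all between -162 and -131 bp, inside the stretch shown above), 5 at Nap1l5, 6 at Nnat and 6 at Peg13. Inside the Zrsr1 gene but beyond the span, matches lay at 1278 and 1412 bp after the start. Both fall in the window where EpiSCs were at 42.1% and ASCs at 1.15%. Nap1l5, Nnat and Peg13 had matches beyond the span as well. Of all 53734 genes 29.5% had at least 1 match, 0.664% had at least 5 and 0.274% at least 6. All 5 intragenic spans were rich in CpG, with 73 to 96, and among the 11576 genes with at least 73 CpG 68.3% had at least 1 match. The shares with at least 5 or 6 matches were not counted among these genes. The 0.664% and 0.274% of all genes thus do not allow for CpG content. The hosts had 1 match each, except Herc3 with 0.

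The CpG inside the matches were compared with the other CpG within 1000 bp of the same start, as a description on few reads. At Peg13 they were methylated in 24 of 35 and 35 of 47 observations in ASCs (68.6% and 74.5%), and the other CpG of the span were at 66.9% and 72.5%. At Nnat they were at 24.0% and 33.3% in ASCs, beside 33.0% and 29.8% at the other CpG. At Nap1l5 they were at 17.6% and 18.8% in ASCs, beside 25% and 38.03% at the other CpG. At Mcts2 0 of 8 and 0 of 13 observations at the matches were methylated in ASCs, beside 8.92% and 6.57% at the other CpG, and in EpiSCs 13 of 24 and 6 of 12 were. The match counts rest on the reference sequence and say nothing of whether the protein was bound.

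The next question was whether the promoters of the hosts moved with the genes inside them. Commd1 encodes a regulator of copper handling, H13 the signal peptide peptidase, Herc3 a ubiquitin ligase, Blcap a small conserved protein named after bladder cancer, and Trappc9 a subunit of a complex that tethers transport vesicles. At the start of the chosen transcript the promoters of Commd1, H13 and Blcap were low in all 3 groups, and none of these 3 was called in any comparison by the limma-moderated model, by limma on log ratios or by Fisher's exact test with the same 20 points, where 35%, 52.8% and 34.4% of all promoters were called by the model, and with 3 promoters little can be read from that. At an unadjusted p under 0.05, regardless of size, 2 of 3 differed between ASCs and ESCs (57.8% of all promoters), 3 of 3 between EpiSCs and ESCs (83.1% of all), and 2 of 3 between ASCs and EpiSCs (67% of all). After adjustment these counts were 0, 3 and 2, beside 53.5%, 82.2% and 63.3% of all promoters.

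The Commd1 promoter had 5.36% and 3.85% in the ASC libraries, 3.51% and 3.26% in the ESC libraries, and 18.2% and 18.9% in the EpiSC libraries. The EpiSC minus ESC difference was 15.1 ± 3.08 points (adjusted p = 0.000515). The H13 promoter gave 3.28% and 2.71% for ASCs, 0% and 0.495% in ESCs (0 of 131 observations, an upper limit of 2.29%), and 4.14% and 9.73% in EpiSCs. The intragenic starts of Zrsr1 and Mcts2 were thus at intermediate levels in EpiSCs while the starts of their hosts were far lower in the same libraries. At Blcap the ASC libraries had 1.94% and 2.39%, with 0% and 0.568% in ESCs (0 of 266 observations, an upper limit of 1.13%), and 7.69% and 6.86% in EpiSCs.

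Herc3 and Trappc9 had under 40 observations in at least 1 library. The Trappc9 promoter was at 14.6% and 3.85% in ASCs (48 and 26 observations), at 0% in both ESC libraries (37 and 53 observations, upper limits of 8.11% and 5.66%) and at 15.6% and 17.0% in EpiSCs. The Herc3 promoter at the start of the chosen transcript gave 50% and 46.7% for ASCs, 12% and 15.1% for ESCs, and 73.5% and 89.2% for EpiSCs, with 34 to 53 observations, and with a minimum of 20 observations it was called in all 3 comparisons. This start holds few CpG (11 in the promoter). At the most upstream GENCODE start of Herc3, whose promoter holds up to 40 CpG, ASCs had 2.84% ± 0.477, ESCs 2.30% ± 0.0688 and EpiSCs 25.3% ± 7.12 (SD, n = 2 each), and there both comparisons with EpiSCs were called and that of ASCs with ESCs was not. The most upstream start of Blcap, with 22 to 45 observations and therefore not tested, had 28.9% and 22.7% in ASC replicates 1 and 2, 4% and 2.70% in ESC replicates 1 and 2, and 60% and 46.4% in EpiSC replicates 1 and 2, far above the levels at the chosen start. The picture at Herc3 and at Blcap thus depended on which start was taken (for Commd1, H13 and Trappc9 the chosen start is the most upstream one in GENCODE).

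Gene bodies, from 1000 bp after the start to the end, were highly methylated in EpiSCs in all 5 hosts. Against ESCs, 5 of 5 were called higher in ASCs (93.5% of 18444 gene bodies were) and 5 of 5 in EpiSCs (98.4% were). In 4 of 5 ASCs were called lower than EpiSCs, beside 77.6%, and the fifth, Trappc9, differed by -17.5 points, under the 20 required (adjusted p = 2.37e-29). These shares were near those of gene bodies in general. The median ASC minus EpiSC difference of all bodies was -25.6 points.

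The body of Commd1 stood at 46.2% and 47.03% in the ASC libraries, 13.2% and 12.7% in the ESC libraries, and 79.3% and 80.9% in the EpiSC libraries. That of H13 had 40.1% and 39.9%, 12.98% and 13.4%, and 83.1% and 82.9% in the same order. Both were low for gene bodies in every group, with 16.4% and 11.5% of all bodies lower in ASCs, and the same shares were 20.2% and 21.02% for ESCs and 12.7% and 16.7% for EpiSCs. The body of Herc3 gave 70.9% and 72.5% for ASCs, 23.7% and 25.3% for ESCs, and 95.1% for both EpiSC libraries. That of Trappc9 was at 73.1% and 74.2%, 22.3% and 22.4%, and 90.9% and 91.4%, and in ASCs 93.1% of all bodies were lower than it. In the short body of Blcap ASC libraries had 46.8% and 44.1%, ESC libraries 5.01% and 6.26%, and EpiSC libraries 91.3% and 92.05%, and 15.4%, 4.64% and 54.2% of all bodies were lower than it in ASCs, ESCs and EpiSCs.

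The intragenic gene is part of the host body, so the bodies were also measured without it and its 5000 bp flanks. The Commd1 body then rose from 46.6% to 63.0% in ASCs and from 80.1% to 94.1% in EpiSCs, and in ESCs it was at 17.8%. The medians of all bodies were 63.5% in ASCs, 91.2% in EpiSCs and 18.8% in ESCs. The low ranks of Commd1 given above thus hold only with the Zrsr1 region inside. H13 moved little, to 40.7% in ASCs and 85.3% in EpiSCs, and so did Trappc9, to 73.6% and 91.9%. Herc3 moved from 71.7% to 76.1% in ASCs, and its ASC minus EpiSC difference from -23.4 to -18.4 points (adjusted p = 3.61e-18), below the 20 points of a call. The body of Blcap lies wholly inside the flanks of Nnat and could not be measured apart. Of the 4 bodies that could, 2 (Commd1 and H13) were then called lower in ASCs than in EpiSCs.

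**Figure D4:**
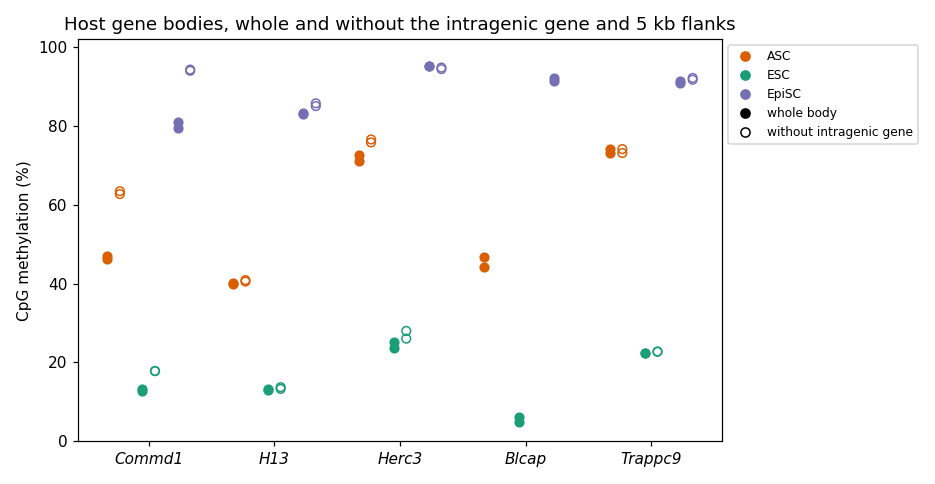
CpG methylation (%) of the 5 host gene bodies by library, colored by group. Filled circles are whole bodies and open circles the bodies without the intragenic gene and its 5 kb flanks, which leaves nothing of Blcap. Commd1 shows the widest gap between filled and open circles, 46.6% and 63.0% in the mean of the ASCs.

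The genes from which the intragenic genes were copied, and their relatives, were a first list for comparison. Of 6 promoters 3 had enough observations, and 1 of 3 was called: Zrsr2, the parent of Zrsr1 on the X chromosome, was at 0% in all 4 ASC and ESC libraries and at 38.0% ± 14.5 in EpiSCs (SD, n = 2, adjusted p = 3.27e-05 against ESCs). Among all promoters 52.8% were called higher in EpiSCs than in ESCs. Nap1l1 and Nap1l4 were under 6% in every group. Mcts1, Nap1l2 and Nap1l3, also on the X chromosome, were not tested for lack of reads. Their EpiSC means were 41.5%, 58.9% and 48.3%, and their ASC and ESC means were at most 7.35%. At Nap1l2 EpiSC replicates 1 and 2 were far apart, at 83.3% and 34.5% (48 and 29 observations). The study describes an inactive X chromosome in female EpiSCs and none in female ASCs. At these X-linked promoters, X inactivation and kinship with an imprinted copy therefore cannot be told apart.

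Of 8 other imprinted starts with a mark from the egg (Mest, Peg3, Plagl1, Peg10, Snrpn, Kcnq1ot1, Airn and Inpp5f), 6 were tested. Above ESCs 5 of 6 were called in ASCs (35% of all promoters were) and 5 of 6 in EpiSCs (52.8% of all), the exception in both being Inpp5f. By the rule for transcripts Inpp5f was measured at the start of its long transcript, whereas its imprinted start lies further inside the gene and was not analysed here, so this value is not one of an imprinted start. Between ASCs and EpiSCs 2 of 6 were called, Kcnq1ot1 (72.3% and 96.2%) and Plagl1 (39.7% and 69.6%), both lower in ASCs, a share near the 34.4% of all promoters. The Plagl1 libraries were far apart in EpiSCs, at 83.1% and 56.2% in replicates 1 and 2. ASC replicates 1 and 2 were there at 35.2% and 44.2%. Without Inpp5f, an alternative chosen after seeing the data, the median ASC minus EpiSC difference was -13.4 points, with a range from -29.9 to 6.47, and with it the median was -9.70. At the 5 intragenic starts the range was from -69.4 to -1.78. Of the starts not tested, Snrpn was at 30.6% and 31.8% in ASC replicates 1 and 2 and at 68.97% and 93.3% in EpiSC replicates 1 and 2 (15 to 53 observations over the 6 libraries). Airn showed a smaller gap, with 74.4% and 66.7% in ASC replicates 1 and 2 and 85.7% and 76.1% in EpiSC replicates 1 and 2 (35 to 49 observations). At Mest ASCs were at 57.1% ± 0.383 and EpiSCs at 50.7% ± 7.43 (SD, n = 2 each), a difference of 6.47 points that was not called. Whether the 2 lists differ was not tested.

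The third list held 12 genes that keep or change DNA methylation, of which 9 promoters were tested. Above ESCs 1 of 9 was called in ASCs (Dnmt3l, a cofactor of the de novo methyltransferases), in EpiSCs 4 of 9 (Dnmt3l, Uhrf1, Zfp57 and Zfp445), and 3 of 9 were called lower in ASCs than in EpiSCs (Dnmt3l, Uhrf1 and Zfp57). None of these shares was above that of all promoters (35%, 52.8% and 34.4%). Uhrf1, which guides the maintenance methyltransferase to replicated DNA, was at 8.73% in ASCs, 0.641% in ESCs and 38.9% in EpiSCs. Zfp57 was at 7.35%, 0.769% and 35.9%. Setdb1, Tet1 and Dppa3 had too few observations for a test. In the same order Tet1 was at 16.8%, 0% and 94.2% and Setdb1 at 17.1%, 11.1% and 19.1%, while Dppa3 is given above. Median differences over the 9 were 6.58, 18.2 and -9.75 points for ASCs minus ESCs, EpiSCs minus ESCs and ASCs minus EpiSCs, close to those of all promoters. No RNA was measured in these files, so nothing is said of expression.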

How the data were processed

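CpG methylation was measured by post-bisulfite adaptor tagging in 6 libraries. As the methods and the submitters' processing notes state, the authors trimmed reads with Trim Galore, aligned them to GRCm38 with Bismark 0.16.3, removed PCR duplicates, and computed CpG levels and coverage, with both strands joined, by MethPipe (version not given in the sources used here). Each deposited table holds, per CpG, the methylation level as a fraction of reads and the coverage as a raw count, not pooled over replicates. The read length is given differently by the labels and the methods. Methylated read counts were recovered as level times coverage, which lay within 0.000115 of a whole number. All 6553 site entries at the 5 loci were CpG of the reference.

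Counts were summed over promoters, gene bodies and windows of 500 bp on chromosomes 1 to 19 and X (GENCODE M21, 1 transcript per gene: best APPRIS principal, then basic, support level, length, lowest ID). A quasi-binomial logistic model was fitted over all 6 libraries with group as the term, with dispersion moderated by squeezeVar of limma 3.58.1 (R 4.3.3) and two-sided F tests, Benjamini-Hochberg adjusted over all regions of a kind. A call needed an adjusted p under 0.05 and 20 points between the group means. Regions needed 40 observations per library. The model was also run on simulated data, with an outcome that is not reported here. Named genes were the members, whether called or not, and the genes of 3 lists, with values for up to 4 of each list and also for Airn. Per locus, the windows named were the one over the start and those with the lowest and highest EpiSC level. Members and lists were chosen with earlier results of these data known. Upper limits of a share of 0 are 3 counts of the total, and these limits cover counting error only.

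Replicates were called biological in the methods, but the labels name no separate cultures, so p-values may measure technical spread only. Per CpG their chi-square averaged between 1.02 and 1.05, where sampling alone gives about 1, but at this low coverage it shows little of a spread between replicates. Over whole regions the replicates differed by more. The dispersion toward which regions were moderated was 1.47 for promoters, 1.56 for gene bodies and 1.19 for windows. The Peg13 promoter had 3.74 after moderation and the Plagl1 promoter 3.82. Equal replicate numbers did not pair the libraries (correlations of their deviations between -0.00407 and 0.00268). An exact test of 2 against 2 libraries cannot go below p = 0.333, so none was used. Alternatives were other minimums of observations and of difference, other spans and window grids, limma on log ratios, Fisher's exact test on summed observations (counting error only), thinning to the total of the shallowest library, a replicate block and leaving out libraries.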

Additional observations from a re-analysis of the deposited data

How the results depend on the processing

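Calls rest on thresholds and on few observations. Requiring 40 points left 1 intragenic promoter called for ASCs minus ESCs, 2 host bodies each for ASCs minus ESCs and ASCs minus EpiSCs, and 7 windows for ASCs minus ESCs. A minimum of 100 observations left 3 intragenic promoters called of 3 tested for EpiSCs minus ESCs and 2 for ASCs minus EpiSCs, and 5, 7 and 5 windows in the 3 comparisons (in the order ASCs minus ESCs, EpiSCs minus ESCs, ASCs minus EpiSCs), and a minimum of 20 gave 41, 55 and 40 windows. Host promoters called rose from 0 to 1 in each comparison with a minimum of 20 observations and with 1000 bp on each side of the start, both through Herc3, to 3 (EpiSCs minus ESCs) and 2 (ASCs minus EpiSCs) without a minimum difference, and to 1 in each comparison with EpiSCs at the most upstream annotated start, an alternative chosen after seeing the data. Without the intragenic gene 2 host bodies were called for ASCs minus EpiSCs.

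Thinned to the total of the shallowest library, 22 windows could be tested and 11, 19 and 15 were called. Leaving out 1 library in turn, the calls of promoters and host bodies kept their numbers, windows called ranged from 13 to 17, 23 to 26 and 19 to 20 (with the Peg13 start window called higher in ASCs than in EpiSCs without ASC replicate 2 and without EpiSC replicate 2), and pairs of loci from 5 to 8. The ASC minus ESC difference ranged from -0.406 to 0.778 points at Mcts2, and the ASC minus EpiSC difference from -12.5 to 8.90 at Peg13. With the replicate block the counts were 3, 5 and 4 intragenic promoters, 0 host promoters in each comparison, 5, 5 and 4 bodies, 14, 23 and 19 windows and 8 pairs, and the block changed no call counted. Equal replicate numbers share only a number. Signs turned in differences below 20 points, which were not called: Peg13, ASCs minus EpiSCs, to 8.90 without ASC replicate 1, 2.70 without EpiSC replicate 1, 8.82 and 12.1 points over 1000 and 500 bp on each side, Mcts2, ASCs minus ESCs, to -0.406 without ESC replicate 1, and Commd1, ASCs minus ESCs, to -0.310 over 500 bp on each side. The cause was not tested. Depth limits single windows most, since 26 of 132 could be tested.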
